A study of Mus musculus with 6 samples.

Results

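The expression of 7 nuclear genes of cytochrome c oxidase was followed in whole mouse embryos: the testis forms Cox6b2 and Cox8c, the form induced by low oxygen Cox4i2, the heart and skeletal muscle forms Cox6a2, Cox7a1 and Cox8b, and the assembly factor Cox20. They were found by symbol, and 7 of 7 listed genes were among the 23366 genes counted. The list was chosen by hand with the fold changes of these same libraries already known, in which Cox6b2 had been called higher in the knockouts. Their folds, standard errors and adjusted p-values between the groups are therefore given here as a description and support nothing.

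Polyadenylated RNA came from 6 embryos at mid-gestation (E10.5), 3 in each of 2 groups. Knockout embryos were H3f3a fl/-, H3f3b fl/-, Sox2-Cre Tg/0 and Trp53-/-, while control embryos were H3f3a fl/+, H3f3b fl/+, Sox2-Cre Tg/0 and Trp53-/-. H3f3a and H3f3b both encode histone H3.3, Sox2-Cre is a recombinase transgene active in the epiblast, and Trp53 encodes p53, so both groups lacked p53 and carried a floxed allele of each H3.3 gene that the recombinase could delete. The strain was a mixture of C57BL/6, CD1 and 129, and the labels do not say whether embryos were littermates, so the tests measure the spread between these embryos.

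Cytochrome c oxidase, or complex IV, is the last enzyme of the respiratory chain and passes electrons from cytochrome c to oxygen. Its catalytic core is encoded by mitochondrial DNA, and the surrounding nuclear-encoded subunits tune its activity and stability. Several of those subunits exist as a widely expressed form and a form restricted to some tissues, and a separate set of proteins, of which Cox20 is a chaperone for the newly made core subunit COX2, assembles the complex.

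Gene counts ran from 24952853 to 30461689 per library. H3f3a had 338 to 367 CPM (the count relative to the TMM-scaled library size) in the controls and 64.4 to 70.0 CPM in the knockouts, while H3f3b had 669 to 727 and 392 to 503 CPM. Trp53, null in both groups by label, had 2.20, 2.96 and 3.11 CPM in controls against 5.70, 3.18 and 4.67 in knockouts (edgeR adjusted p = 0.169), and counts do not show whether such transcripts are functional. Of all alignments, those outside annotated genes made up 9.79%, 10.7% and 13.1% in controls 1, 2 and 3 against 18.3%, 10.6% and 18.0% in knockouts 1, 2 and 3. Knockout 2 thus lay within the control range and knockouts 1 and 3 above it. In a fit with this share as a covariate, the difference between the groups therefore leans mostly on knockout 2.

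Of the 7 genes, 5 passed the filter on low counts, and 2 of those 5 were called by edgeR at an adjusted p under 0.05, Cox6b2 higher and Cox20 lower in the knockouts. Over all 15075 tested genes 1.51% were called, 0.551% higher and 0.955% lower. The same 2 genes were the ones whose libraries did not overlap between the groups, as was so for 24.1% of all tested genes. Nothing is read from these shares, since the list was drawn up with this contrast in view. The median log2 fold change of the 5 was -0.06, beside -0.001 over all genes.

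**Figure D1:**
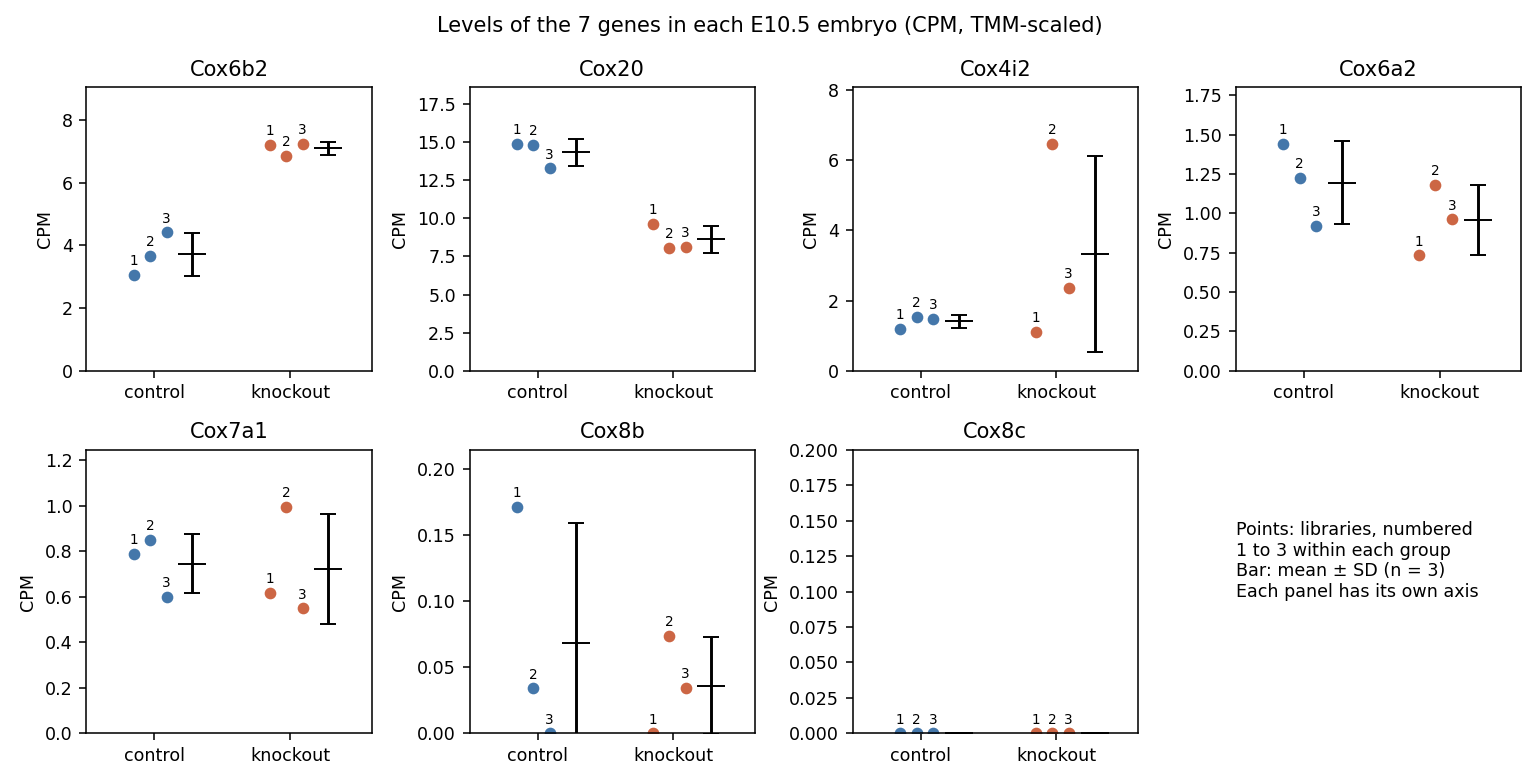
CPM of each of the 7 genes (y axis, linear, a separate scale per panel) in the 3 control and 3 knockout libraries, shown as numbered points with the mean and SD. Cox6b2 is higher and Cox20 lower in every knockout than in any control, Cox4i2 is high in knockout 2, Cox6a2 and Cox7a1 overlap, Cox8b is near 0 and Cox8c is at 0.

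Cox6b2, the testis form of a small subunit that faces the intermembrane space and helps join the complex IV dimer, was low in controls and higher in each knockout. The controls held 3.05, 3.67 and 4.42 CPM and the knockouts 7.21, 6.87 and 7.24 CPM, from 89, 108 and 125 against 187, 186 and 211 counts. The lowest knockout lay above the highest control, and the knockouts were closer together than the controls, with a coefficient of variation of 2.88% against 18.4%. The means were 3.71 ± 0.683 and 7.11 ± 0.205 CPM (SD, n = 3 each), 1.91-fold higher in the knockouts, a log2 fold change of 0.94 ± 0.17 (SE). The edgeR adjusted p was 0.0311, and the call was lost (adjusted p above 0.05) without control 1 (0.163), control 2 (0.118), knockout 1 (0.0615) or knockout 3 (0.137), with log2 fold changes of 0.81 to 1.08 over all 6 omissions. Of the 227 genes called with every library, these fits still called 67, 56, 163 and 90, in that order.

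Its widely expressed counterpart Cox6b1 did not move with it. Cox6b1 averaged 125 ± 13.0 CPM among controls against 114 ± 20.1 CPM among knockouts (SD, n = 3), and its log2 difference of -0.13 ± 0.13 (SE) was not called (edgeR adjusted p = 0.592). Divided by exonic length, Cox6b2 made up 1.96%, 2.19% and 3.21% of the pair among controls but 5.42%, 4.00% and 5.66% among knockouts. The share was thus 2.45 ± 0.669% against 5.03 ± 0.893% (SD, n = 3), without overlap, and Cox6b1 remained the main form in every library.

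The promoters of the pair and of Cox20, the other called member, are shown because these are the genes whose levels the comparison turns on. RefSeq promoters, 250 bases before to 50 after the start on GRCm38.p6, were found for 4 of the 7 genes: Cox6b2, Cox7a1, Cox8b and Cox20. They are written 5′ to 3′ along the gene's strand, with every CG and every CCAAT (or ATTGG, its complement) in capitals; the 2 motifs cannot share a base. The windows are chr7:4753045-4753344 (minus strand) for Cox6b2, chr7:30626065-30626364 (minus strand) for Cox6b1 and chr1:178318903-178319202 (plus strand) for Cox20.
Cox6b2: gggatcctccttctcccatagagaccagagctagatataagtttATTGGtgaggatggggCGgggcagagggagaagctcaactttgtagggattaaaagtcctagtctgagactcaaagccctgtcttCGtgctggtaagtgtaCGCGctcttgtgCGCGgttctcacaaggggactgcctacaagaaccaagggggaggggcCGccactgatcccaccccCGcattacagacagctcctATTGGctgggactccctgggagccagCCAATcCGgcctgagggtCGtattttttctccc
Cox6b1: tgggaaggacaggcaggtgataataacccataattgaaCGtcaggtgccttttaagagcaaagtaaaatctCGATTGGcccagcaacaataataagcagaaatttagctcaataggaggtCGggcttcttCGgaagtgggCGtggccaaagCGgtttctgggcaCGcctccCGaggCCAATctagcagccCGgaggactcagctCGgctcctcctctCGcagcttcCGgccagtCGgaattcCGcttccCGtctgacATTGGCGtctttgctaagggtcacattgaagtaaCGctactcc
Cox20: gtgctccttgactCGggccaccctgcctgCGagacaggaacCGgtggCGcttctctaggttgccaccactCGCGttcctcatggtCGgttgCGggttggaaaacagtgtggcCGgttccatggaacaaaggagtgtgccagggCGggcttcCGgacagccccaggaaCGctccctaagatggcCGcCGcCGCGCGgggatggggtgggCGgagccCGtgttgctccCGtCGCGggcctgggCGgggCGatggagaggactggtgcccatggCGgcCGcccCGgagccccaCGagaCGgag

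The Cox6b2 window holds 10 CG and that of Cox6b1 17, and each holds 3 CCAAT on either strand. At least 10 CG occur in 43.5% of the 32851 promoters in the table and at least 17 in 31.4%, with a median of 7. At least 1 CCAAT occurs in 37.4%, and the share with at least 3 was not counted. The Cox20 window holds 29 CG, a number reached by 12.9% of promoters, and no CCAAT. Those of the muscle forms Cox7a1 and Cox8b hold 7 and 2 CG. The number of CG thus differs widely between the genes, and the 2 called members lie apart in it.

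Other testis and germ cell genes were scarce in these embryos. Of 26 such genes in the files, 5 passed the filter and 6 were at 0 in all 6 libraries: Prm1, Prm2, Tnp1, Pgk2, Odf1 and Rhox13. Their summed level was 6.65 to 8.33 CPM in controls and 9.29 to 12.3 CPM in knockouts. These ranges do not overlap, as was so for 24.1% of single tested genes. The sum moved mainly with Sycp3, which averaged 0.416 CPM in controls and 1.77 CPM in knockouts, and Tdrd1, at 3.75 and 4.84 CPM. Ddx4 went the other way, at 1.57 and 1.36 CPM. The sums of the heart list and of the pericyte and smooth muscle list, given below, did not overlap either. None of the 5 was called by edgeR, with 1 at an unadjusted p under 0.05 (2896 of 15075 over all genes). DESeq2 called 1 as higher (456 of 15074 over all genes). That gene was Sycp3, a component of the meiotic chromosome axis, at 0.206, 0.442 and 0.601 CPM in controls and 0.963, 2.73 and 1.61 CPM in knockouts (log2 fold change 2.08 ± 0.47, edgeR adjusted p = 0.0733, and 0.032 without knockout 1 and 0.0335 without knockout 2). The piRNA pathway gene Tdrd1 was at 0.37 ± 0.18 and Dnd1, an RNA-binding protein of germ cells, at 0.45 ± 0.40. Ddx4, the germ cell helicase, was at -0.21 ± 0.26, with 56, 49 and 32 counts in controls and 31, 39 and 42 in knockouts. Among testis forms of energy metabolism, picked after the counts were seen, the cytochrome c form Cyct had 0, 0 and 3 counts in controls and 2, 24 and 1 in knockouts, while Ldhc had 1 count in all. Slc25a31, the only such form to pass the filter, had 3, 23 and 17 counts in controls and 11, 22 and 22 in knockouts. Its log2 fold change was 0.43 ± 0.56 (edgeR adjusted p = 0.695). Pdha2 had 1 count in each control and 0 in each knockout, and Gapdhs at most 1 in a library. The part of germ cell transcripts in the Cox6b2 difference was not tested.

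Cox8c, the testis form of the smallest subunit, had 0 counts in all 6 libraries. Taking 3 counts over a group as the limit that a count of 0 allows, this leaves up to 0.0345 CPM over the controls and 0.0365 CPM over the knockouts, for counting error only. Cox8c and Cox6b2, both named for the testis, thus differed in whether they were detected at all.

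Cox20 was lower in each knockout than in any control. The controls held 14.9, 14.8 and 13.3 CPM and the knockouts 9.63, 8.09 and 8.13 CPM, from 434, 436 and 376 against 250, 219 and 237 counts. The means were 14.3 ± 0.907 and 8.62 ± 0.879 CPM (SD, n = 3 each), 1.66-fold lower in the knockouts, a log2 fold change of -0.73 ± 0.12 (SE). The edgeR adjusted p was 0.022, and the call was lost (adjusted p above 0.05) without control 1 (0.147), control 2 (0.0962), control 3 (0.0524) or knockout 3 (0.118), with log2 fold changes between -0.81 and -0.69 over all 6 omissions. Of the 227 genes called with every library, these fits still called 67, 56, 108 and 90, in that order.

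The end of Cox20 overlaps the full RefSeq span of Hnrnpu, an abundant RNA-binding protein gene on the opposite strand. Hnrnpu averaged 1735 ± 73.0 CPM among controls against 1598 ± 24.9 CPM among knockouts (SD, n = 3), a log2 difference of -0.12 ± 0.09 (edgeR adjusted p = 0.457). Whether counting used the strand is unknown here, so reads from any shared stretch cannot be told apart, and the Cox20 level is uncertain to that extent. Desi2, the neighbour on the other side, had 61.6 ± 1.28 and 68.9 ± 6.67 CPM (log2 fold change 0.16 ± 0.09). Neither neighbour was called, and neither was lower by as much as Cox20.

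The other assembly factors of complex IV did not share the size of the Cox20 difference. Of 26 listed genes 25 were in the files and 24 were tested, and neither edgeR nor DESeq2 called any. An unadjusted p under 0.05 was reached by 1, beside 2896 of 15075 over all genes. Their median log2 fold change was -0.09, with 19 below 0 and a range from -0.34 to 0.64. Cox19, a copper-related factor of the intermembrane space, had the smallest p, at 26.0 ± 2.11 CPM in controls and 20.5 ± 0.966 CPM in knockouts (SD, n = 3), a log2 fold change of -0.34 ± 0.10 (edgeR adjusted p = 0.121). Cox18, which inserts the tail of COX2 into the membrane and so acts on the same subunit as Cox20, was at -0.30 ± 0.17 (adjusted p = 0.344 by edgeR). The copper chaperone genes Sco1 and Sco2, which also serve COX2, were at -0.07 ± 0.09 and -0.23 ± 0.26. Without knockout 2, edgeR called 1 of these genes as lower, Cox7a2l at -0.30, which stabilises respiratory supercomplexes. With the share of alignments outside genes as a covariate, edgeR called 2 as higher, Cox7a2l at 0.31 (adjusted p = 0.0483) and Higd1a at 1.10 (0.00198). Over all genes, edgeR called 504 lower without knockout 2 and 437 higher with the covariate.

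The 11 widely expressed subunits were also tested, and none was called by edgeR or DESeq2. Of them, 1 had an unadjusted p under 0.05, as did 2896 of 15075 over all genes. All 11 log2 fold changes were below 0 under TMM scaling, from -0.30 to -0.001, with a median of -0.13. Cox5a was at -0.30 ± 0.09 (edgeR adjusted p = 0.147), Cox7b at -0.23 ± 0.12 and Cox5b at -0.20 ± 0.10. Their median against the control mean was -0.27, 0.11 and -0.30 in knockouts 1, 2 and 3, beside 0.04, 0.12 and -0.16 for controls. Without knockout 2, edgeR called 3 as lower, Cox5a at -0.40, Cox7b at -0.37 and Cox5b at -0.31, in a fit that called 504 genes lower in all, against 144 with every library. With the share of alignments outside genes as a covariate, the log2 fold changes of the common forms of the pairs, Cox6b1, Cox4i1, Cox6a1, Cox7a2 and Cox8a, were above 0. None of the 11 was called in that fit, and the log2 fold changes of the other subunits in it were not compared.

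**Figure D2:**
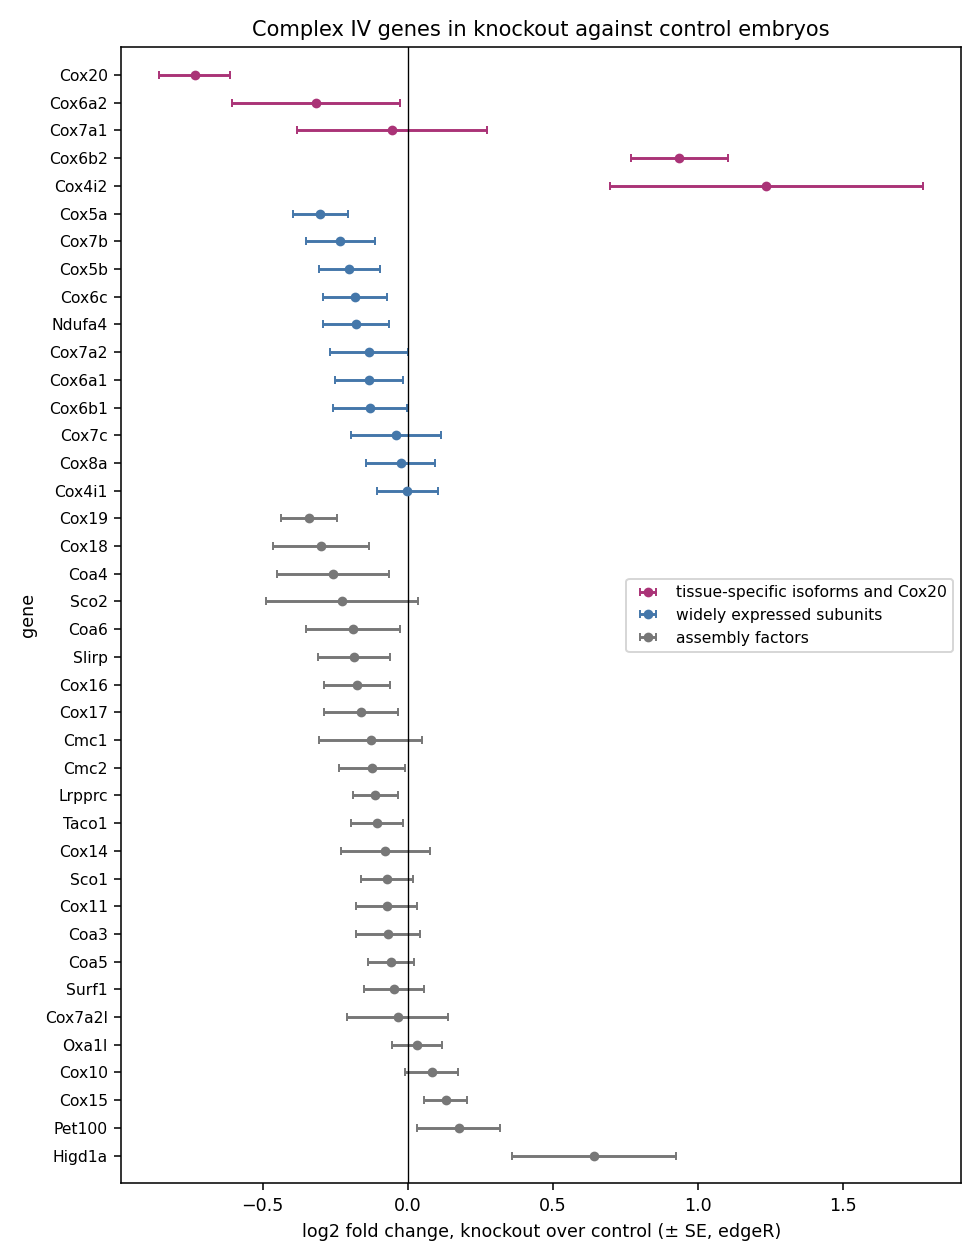
Log2 fold change of knockout over control (x axis) with its standard error for the 5 tested members, the 11 widely expressed subunits and the 24 tested assembly factors (y axis), 3 libraries a group. Cox20 lies at -0.73 and Cox6b2 at 0.94, while the widely expressed subunits span -0.30 to -0.001 and the assembly factors -0.34 to 0.64, with Higd1a the highest of these.

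Cox4i2, the form of subunit 4 that low oxygen induces and that is known from lung and vascular mural cells, differed among the knockouts more than between the groups. The controls held 1.20, 1.53 and 1.48 CPM and the knockouts 1.12, 6.46 and 2.37 CPM, from 35, 45 and 42 against 29, 175 and 69 counts. Knockout 1 lay below every control, knockout 3 above them and knockout 2 far above all, so the groups overlap. The means were 1.41 ± 0.179 and 3.32 ± 2.80 CPM (SD, n = 3 each), and the log2 fold change of 1.24 ± 0.54 (SE) was not called (edgeR adjusted p = 0.255). Without knockout 2 the log2 fold change was 0.32 ± 0.32. With the share of alignments outside genes as a covariate it was 1.94 ± 0.34 (edgeR adjusted p = 0.012). Knockout 2 is the only knockout whose share lies within the range of the controls, so the group difference in that fit leans mostly on this library.

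Within its pair, per exonic length, Cox4i2 made up 0.610%, 0.789% and 0.863% in controls and 0.658%, 2.91% and 1.34% in knockouts. Cox4i1, the widely expressed form, averaged 181 ± 13.2 CPM among controls and 181 ± 24.9 CPM among knockouts (SD, n = 3), with a log2 fold change of -0.001 ± 0.11 that was above 0 under other scalings. The share of Cox4i2 in knockout 2 thus rested on Cox4i2 itself.

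**Figure D3:**
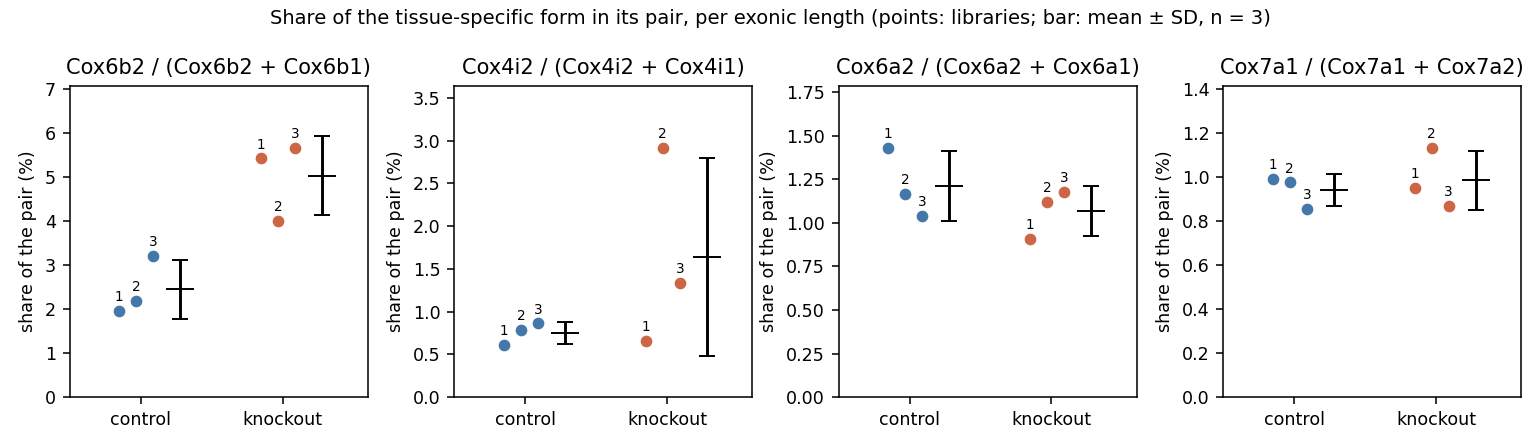
Share of the tissue-specific form in the sum of both forms of a pair, per exonic length in percent (y axis), for 4 pairs, with libraries as numbered points and the mean and SD of 3 libraries. Cox6b2 is at 1.96% to 3.21% in controls and 4.00% to 5.66% in knockouts, Cox4i2 reaches 2.91% in knockout 2, and the 2 muscle forms stay between 0.857% and 1.43%.

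In their median, genes induced by low oxygen had the same order of knockouts as Cox4i2. The median over 22 such genes, as log2 against the control mean, was 0.18, 1.54 and 0.47 in knockouts 1, 2 and 3, where Cox4i2 was at -0.23, 1.87 and 0.60. Vegfa departed from this order, at 84.9, 127.5 and 130.6 CPM in knockouts 1, 2 and 3. So did Pfkfb4 (10.4, 8.38 and 11.4 CPM) and Mxi1 (50.8, 66.8 and 49.9 CPM), while the rest of the list kept it. All 22 log2 fold changes were above 0, with a median of 0.89, but edgeR called 1 of them, while 13 had an unadjusted p under 0.05, as did 2896 of all 15075 genes. DESeq2 called 4, and edgeR called 6 without knockout 1, 8 without knockout 2, none without control 2 and 16 with the covariate. Over all genes the same fits called 456, 95, 1159, 7 and 437 higher, in that order, against 83 in the main fit. Of the 22, the gene called in the main fit was Vegfa, the vascular endothelial growth factor, at 1.51 ± 0.19 (edgeR adjusted p = 0.00699, but 0.0665 without control 2 and 0.076 with the covariate, where it is not among the 16). The adrenomedullin gene Adm was at 2.68 ± 0.67 and the histone demethylase gene Kdm3a at 0.44 ± 0.14, both called by DESeq2 (adjusted p = 0.0131 and 0.0469) and neither by edgeR (0.118 and 0.149).

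The mitochondrial genes Ndufa4l2, Higd1a and Lonp1, known to respond to low oxygen, were compared with Cox4i2 after their values were seen. Higd1a and Lonp1 are also among the 22 genes of the low-oxygen list, so their values are not separate from its median and calls. Ndufa4l2, a relative of the complex IV subunit Ndufa4, had 0.789, 0.748 and 0.778 CPM in controls and 0.848, 7.42 and 1.20 CPM in knockouts. Higd1a, which binds complex IV, had 42.1, 50.1 and 41.4 against 46.6, 105 and 57.1 CPM. Lonp1, the matrix protease that removes Cox4i1 protein when Cox4i2 replaces it, had 92.8, 89.0 and 89.1 against 92.6, 109 and 95.4 CPM. Each was highest in knockout 2 and next in knockout 3, by a far smaller amount for Lonp1, and edgeR called none of them (adjusted p = 0.245, 0.269 and 0.39). With the share of alignments outside genes as a covariate, edgeR called Ndufa4l2 at 2.97 (adjusted p = 0.000555) and Higd1a at 1.10 (0.00198), as it did Cox4i2. That fit leans mostly on knockout 2, the library in which these genes were highest. Cox6b2 did not share the order of knockouts seen in Cox4i2, at 0.88, 0.82 and 0.89 against the control mean. Neither did Cox20, at -0.55, -0.79 and -0.78. The order was not particular to genes that respond to low oxygen. Cox4i1 had it too, at 164, 209 and 169 CPM in knockouts 1, 2 and 3, while Cox6b1, at 105, 137 and 101 CPM, did not. How many of all genes have this order was not counted.

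**Figure D4:**
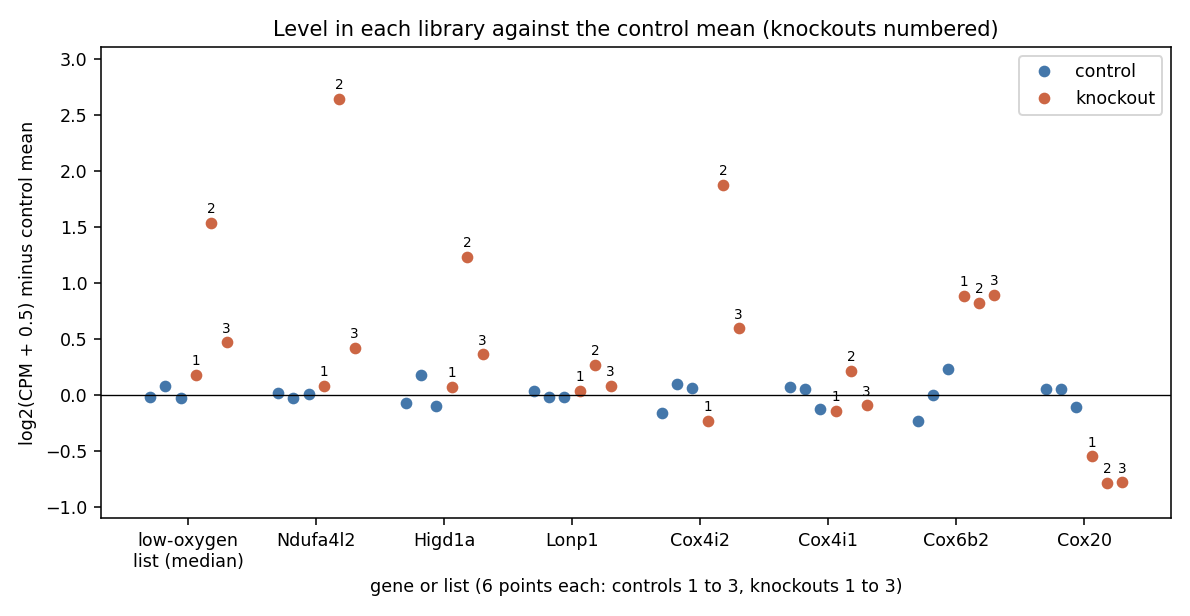
Level in each library as log2(CPM + 0.5) minus the control mean (y axis) for the median of the low-oxygen list and 7 genes (x axis), with controls and knockouts as coloured points and the knockouts numbered. Of the 7 genes, Higd1a and Lonp1 are also on that list. Knockout 2 stands highest for the low-oxygen list (1.54), Ndufa4l2 (2.64), Higd1a (1.23) and Cox4i2 (1.87), whereas the 3 knockouts lie together for Cox6b2 (0.82 to 0.89).

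Mural cell markers were compared because such cells express Cox4i2 and Ndufa4l2. Of 12 pericyte and smooth muscle genes, 11 were tested and none was called by edgeR or DESeq2. An unadjusted p under 0.05 was reached by 2, beside 2896 of 15075 over all genes. Their summed level was 394 to 414 CPM in controls and 431 to 485 CPM in knockouts, and Higd1b was at 0 in all libraries. Notch3 was at 0.28 ± 0.09, the actin-binding Tagln at 0.29 ± 0.21 and Ndufa4l2, which is also on this list, at 2.03 ± 0.83. Pdgfrb, a receptor gene on the list, was at -0.01 ± 0.09. Its control mean of 92.6 CPM was far above that of Rgs5 (7.04 CPM) or Kcnj8 (1.26 CPM), so it is no measure of pericyte content. In bulk RNA, fewer cells of a type and less RNA per cell cannot be told apart. The part of mural cells in the Cox4i2 values was not tested.

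The muscle forms were low in both groups and overlapped. Cox6a2 had 1.44, 1.22 and 0.919 CPM in controls and 0.732, 1.18 and 0.961 CPM in knockouts, from 42, 36 and 26 against 19, 32 and 28 counts. Its log2 fold change was -0.32 ± 0.29, and 0.03 with the share of alignments outside genes as a covariate. Cox7a1 had 0.789, 0.850 and 0.601 CPM in controls and 0.616, 0.997 and 0.549 CPM in knockouts, from 23, 25 and 17 against 16, 27 and 16 counts. Its log2 fold change was -0.06 ± 0.33, with a sign that depended on the libraries included. Neither was called (edgeR adjusted p = 0.568 and 0.946), with at most 42 counts of either in a library.

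Beside their common forms, the muscle forms were a small part of each pair. Per exonic length, Cox6a2 made up 1.21 ± 0.199% of its sum with Cox6a1 in controls and 1.07 ± 0.141% in knockouts, and Cox7a1 0.942 ± 0.0744% and 0.985 ± 0.134% of its sum with Cox7a2 (SD, n = 3). Cox8b, the heart and muscle form of subunit 8 in rodents, gave 5, 1 and 0 counts in controls and 0, 2 and 1 in knockouts. Summed over each group this is 0.0691 CPM (exact 95% Poisson interval 0.0254 to 0.15, counting error only) and 0.0365 CPM (0.00753 to 0.107), so no difference was detectable at this depth.

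Heart muscle transcripts were abundant in the same libraries. The 24 heart genes summed to 838 to 877 CPM in controls and 950 to 964 CPM in knockouts. Nppa, the atrial natriuretic peptide, was the only one called by edgeR, at 1.56 ± 0.23 (adjusted p = 0.0138, and 0.0804 without control 2 and 0.0763 without control 3). DESeq2 called 4, all higher, and edgeR without knockout 2 called 4 higher and 2 lower, Tnnc1 at -0.41 and Myl2 at -0.50. Over all genes, DESeq2 called 456 higher and 323 lower, and edgeR without knockout 2 called 1159 higher and 504 lower. Of the 24 heart genes, 13 log2 fold changes were above 0 and 11 below in the main fit, with a median of 0.08. An edgeR unadjusted p under 0.05 was reached by 7, of which 6 were higher and 1 lower, beside 2896 of 15075 over all genes. The contractile and calcium release genes Myh7 and Ryr2 were at 0.49 ± 0.11 and 0.50 ± 0.13, not called by edgeR (adjusted p = 0.0752 and 0.0907) but called by DESeq2 (0.0049 and 0.0183). Myh6 and Actc1 were at -0.03 ± 0.09 and -0.02 ± 0.10. Of the skeletal muscle genes 10 were tested and none was called by edgeR or DESeq2, with 4 at an unadjusted p under 0.05 (2896 of 15075 over all genes), all lower: Myog at -0.50 ± 0.16, Myf6 at -0.83 ± 0.31, Myh8 at -0.82 ± 0.32 and Myf5 at -0.32 ± 0.13. Their summed level overlapped between the groups, at 135 to 149 and 121 to 142 CPM. Cox6a2 and Cox7a1 thus stayed near 1 CPM in embryos whose heart genes were readily counted.

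Per kilobase of exon, the members in controls were ordered Cox20 at 30.4 ± 1.93, Cox6b2 at 5.01 ± 0.922, Cox4i2 at 1.78 ± 0.227, Cox6a2 at 1.76 ± 0.386, Cox7a1 at 1.40 ± 0.243, Cox8b at 0.190 ± 0.252 and Cox8c at 0 CPM per kilobase (SD, n = 3). Cox4i2, Cox6a2 and Cox7a1 did not differ beyond their spread in the controls. In knockouts the order of the first 3 was the same, at 18.3 ± 1.87, 9.59 ± 0.277 and 4.21 ± 3.55, with Cox6a2 and Cox7a1 at 1.41 ± 0.331 and 1.35 ± 0.452, a range that Cox4i2 in knockout 1 shared. The common forms were far above all of them, from 142 for Cox6a1 to 236 for Cox4i1 in controls, so Cox20 was the only member within an order of magnitude of a common form.

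Of the 7 genes, 4 lie on chromosome 7 (Cox6b2, Cox6a2, Cox7a1 and Cox8b), with Cox20 on 1, Cox4i2 on 2 and Cox8c on 12. The nearest counted genes beside Cox6b2 in the RefSeq annotation of GRCm38.p6 do not overlap it. One was the histone methyltransferase gene Kmt5c, listed in the files under the older symbol Suv420h2, with 33.4 ± 2.39 CPM in controls and 40.4 ± 5.91 CPM in knockouts (log2 fold change 0.28 ± 0.12, edgeR adjusted p = 0.243). The other was Fam71e2, which had 1 count in knockout 3 and 0 in the other 5 libraries. Cox6a2 overlaps Itgad at one end in RefSeq, and Itgad had 0 counts in every library. Cox4i2 likewise overlaps Bcl2l1, an inhibitor of cell death, at 47.3 ± 2.20 and 42.0 ± 1.48 CPM (-0.17 ± 0.08, adjusted p = 0.267). Among the other neighbours, Id1, 9130023H24Rik, Gm5113, Capns1, Psmd13, Btbd7 and Unc79 had log2 fold changes from -0.25 to 0.16, and none was called, while BC024386 had too few counts to be tested.

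Some genes followed a member closely over the 6 libraries, by Pearson's r of log2 CPM among 12640 or 12641 genes averaging 2 CPM or more. Likeness to Cox6b2 was highest for the zinc finger gene Zbtb21 (r = 0.998), the phospholipid flippase gene Atp10d (0.993) and the xylosyltransferase gene Xylt2 (0.991). For Cox4i2 these were Camk2d (0.997), Shmt2 (0.996) and Tfap4 (0.994), of which Shmt2 encodes the mitochondrial serine hydroxymethyltransferase. Cox20 was most like Acadvl (0.997), the very long chain acyl-CoA dehydrogenase of mitochondria, Pafah1b1 (0.996) and Smarcad1 (0.996). Cox6a2 was most like Arpc1b, Arhgdia and Tmem173 (0.985 to 0.990), and Cox7a1 most like 4930579G24Rik, Fam114a1 and Srp54c (0.993 to 0.997). These values describe only 6 libraries, and any difference between the groups or in a single outlying library enters r. With each member, 165 to 471 genes had an r above 0.9, so no gene stands apart by this measure.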

How the data were processed

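Polyadenylated RNA of 6 whole embryos (3 control, 3 knockout, grouped by sample title) was made into libraries with a stranded KAPA kit, per the labels' protocols. The authors deposited raw whole-number counts per gene symbol, without normalization. Trimmomatic, TopHat2, Bowtie2 and HTSeq, with the mm9 build, are named in the submitters' processing notes; which annotation and strand setting served is not given in the sources used here. Lines that name no gene stayed out of library sizes, and alignments that were not unique (18.2% to 22.6%) were uncounted. Libraries were distinct (chi-square per degree of freedom of at least 13.1).

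Counts were tested across all genes with edgeR 4.0.16 in R 4.3.3 (quasi-likelihood F test, robust, TMM, filterByExpr with a minimum count of 10 and total of 15, all 6 libraries, Benjamini-Hochberg, called under 0.05), checked on simulated data, with 15075 of 23366 genes kept. DESeq2 1.42.0, other scalings, no filter, a replicate block, the share of alignments outside genes as a covariate and each library left out were alternatives. SE is the absolute log2 fold change divided by the root of the F statistic. Exonic lengths (union of coding transcripts, GENCODE M21 basic, GRCm38) came by symbol, while the files use mm9. Isoform shares without division by length were the alternative.

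The members, gene lists and tests were chosen with earlier results of these data known. Named are the members, their common forms, H3f3a, H3f3b and Trp53, up to 3 genes of each list with the smallest p and any called, neighbours, the 3 genes most like each tested member, and genes completing a count. Myh6, Actc1, Pdgfrb, Ddx4, Sco1, Sco2, Lonp1, Cyct, Ldhc, Slc25a31, Pdha2 and Gapdhs were added after their values were seen.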

Additional observations from a re-analysis of the deposited data

How the results depend on the processing

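Over all genes, the main numbers of 83 higher and 144 lower became 456 and 323 by DESeq2, and 437 and 311 with the share of alignments outside genes as a covariate. Without a filter 144 were higher. Leaving out single libraries gave 7 to 1159 higher and 53 to 504 lower, with the most without knockout 2. Same-numbered embryos deviated with correlations of -0.0859, 0.175 and 0.264, and 1 of 3 controls correlated best with its own number, so the numbers were not taken as pairs. The replicate block gave 333 higher and 256 lower, with Cox6b2 at 0.95 and Cox20 at -0.74, both called. Under the block Nppa was not called (adjusted p = 0.0947 by edgeR), while Myh7 (0.00628), Ryr2 (0.0408) and Sycp3 (0.0157) were. Cox6b2 and Cox20 kept direction and call under all 6 settings that used all libraries.

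Near 0, signs turned. Cox4i1 was at 0.003 with RLE scaling, 0.054 with library totals, 0.003 by DESeq2 and 0.001 without a filter. With the covariate, Cox4i1 was at 0.197, Cox6b1 at 0.113, Cox6a1 at 0.087, Cox7a2 at 0.125, Cox8a at 0.206, Cox6a2 at 0.03 and Cox7a1 at 0.371. Cox8a was at 0.029 with library totals. Leaving out single libraries gave -0.121 to 0.073 for Cox4i1, -0.18 to 0.067 for Cox8a and -0.362 to 0.116 for Cox7a1. The cause was not tested.

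Without division by length, the shares were 5.97% for Cox6b2 in knockouts, 1.44% and 1.27% for Cox6a2 and 0.766% and 0.801% for Cox7a1 in controls and knockouts. Counts of at most 27 per library limit Cox7a1, and those under 10 Cox8b and Cox8c.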
